A study of Mus musculus with 4 samples.

Results

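Described here are 28 mouse genes of cholesterol synthesis, sterol sensing and sterol handling, followed in liver with and without the aspartic protease DDI2. They were taken by symbol from a list of mevalonate and sterol synthesis enzymes, sterol sensors and sterol transport genes. No cutoff on their values was applied, but the list was chosen with earlier results of these data known. All 28 were found among the 48709 genes of the count files. All 28 also passed the filter on low counts, together with 13699 genes in all. By role, 19 encode enzymes of the pathway, 4 encode the proteins that sense sterols, and 5 act in sterol transport, esterification or receptor turnover.

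Liver RNA of untreated C57BL/6 mice was sequenced as 2 WT libraries and 2 libraries labelled DDI2-KO (genotype DDI2-/-). According to the methods of the study, the DDI2-KO mice carry the floxed Ddi2 allele and express Cre under the albumin promoter. The WT mice were littermates, and the study describes crosses of floxed parents with and without Cre, so they are taken here to carry the floxed allele without Cre, although the genotype of these particular animals is given only as WT. Albumin is made by hepatocytes, so other liver cells are expected to keep the gene, and the bulk RNA contains both. The methods give mice of both sexes aged 6 to 12 weeks for the animal experiments, and the labels give neither age nor sex for these libraries. In bulk tissue, fewer cells of a type and less RNA per cell cannot be told apart.

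Cholesterol is built from acetyl-CoA through HMG-CoA, mevalonate and isoprenoid diphosphates to squalene, which is closed to lanosterol and trimmed to cholesterol. When sterols in the endoplasmic reticulum are low, SCAP escorts SREBP2 to the Golgi, where proteases release its DNA-binding part. That part then raises transcription of the enzymes, usually together with the CCAAT-binding factor NF-Y and with Sp1 at GC boxes. When sterols are high, INSIG proteins hold SCAP and SREBP2 in the endoplasmic reticulum. Liver is the main site of cholesterol synthesis and of its conversion to bile acids.

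The depth on genes was 34109018 and 31532247 reads for WT libraries 1 and 2, and 25582344 and 22501208 reads for DDI2-KO libraries 1 and 2. Values are given in that order throughout. Levels are given as CPM, a gene's count in every 1000000 reads of the library size scaled by edgeR's TMM method, and 3 counts corresponded to 0.0892 to 0.131 CPM. The members took 0.357% to 0.558% of the reads on genes. Ddi2 itself was at 141 and 123 CPM in WT and at 157 and 164 CPM in DDI2-KO (edgeR adjusted p = 0.349), but a whole-gene count does not separate the floxed part and so does not check the labels. The reads that fell on no gene came to 5.11% and 4.70% of those on genes for WT, and to 2.53% and 3.65% for DDI2-KO. Alignments set apart as not unique came to 65.8% and 51.8% of the reads on genes for WT, and to 49.2% and 47.3% for DDI2-KO. WT library 1 had the highest share. Mitochondrial genes took 10.5% and 9.91% against 5.27% and 6.34%. Among nuclear RNAs, Malat1 fell by 1.29 and Neat1 by 1.78 on the log2 scale (edgeR adjusted p of 0.0224 and 0.0438). The part of these differences in the member values was not tested.

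The promoters are shown because SREBP2, NF-Y and Sp1 bind near the start of many genes of cholesterol synthesis. No link between promoter sequence and the levels in these libraries was tested. RefSeq promoters (GRCm38.p6, 250 bases before to 50 bases after the start), matched by symbol, were used for 22 of the 28 genes, in 28 windows. Of the other 6 genes, Fdps, Fdft1, Sqle and Soat2 had no promoter under their symbol. The promoters of Stard4 and Npc1 were left out, so the matches counted below do not include these genes. In the following lines, which run 5′ to 3′ along the gene, the capitals mark CCAAT on either strand (ATTGG where it lies on the opposite strand) and, in Hmgcs1, the sterol regulatory element TCACCCCAC. The first gene carries the sterol regulatory element, Mvk, Idi1 and Msmo1 are the enzymes with the lowest fitted log2 fold changes, and Npc2 is the member that passed the test.
Hmgcs1, chr13:119690101-119690400 (+ strand): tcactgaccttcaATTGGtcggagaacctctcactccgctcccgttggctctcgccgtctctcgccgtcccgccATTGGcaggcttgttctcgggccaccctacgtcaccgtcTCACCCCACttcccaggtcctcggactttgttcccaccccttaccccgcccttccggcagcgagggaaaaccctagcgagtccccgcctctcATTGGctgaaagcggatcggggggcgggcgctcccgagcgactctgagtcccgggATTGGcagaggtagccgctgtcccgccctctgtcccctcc
Mvk, chr5:114444019-114444318 (+ strand): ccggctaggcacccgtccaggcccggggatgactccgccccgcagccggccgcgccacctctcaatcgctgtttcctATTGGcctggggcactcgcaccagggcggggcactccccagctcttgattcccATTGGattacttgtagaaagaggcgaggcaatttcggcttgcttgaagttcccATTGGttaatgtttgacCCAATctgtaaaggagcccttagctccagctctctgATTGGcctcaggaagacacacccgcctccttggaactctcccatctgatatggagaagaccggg
Idi1, chr13:8885356-8885655 (+ strand): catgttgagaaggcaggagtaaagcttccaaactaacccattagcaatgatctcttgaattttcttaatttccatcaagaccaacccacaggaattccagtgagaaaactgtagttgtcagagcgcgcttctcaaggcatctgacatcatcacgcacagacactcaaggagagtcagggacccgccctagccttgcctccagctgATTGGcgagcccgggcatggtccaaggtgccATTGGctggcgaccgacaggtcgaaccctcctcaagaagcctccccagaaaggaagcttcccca
Msmo1, chr8:64733529-64733828 (- strand): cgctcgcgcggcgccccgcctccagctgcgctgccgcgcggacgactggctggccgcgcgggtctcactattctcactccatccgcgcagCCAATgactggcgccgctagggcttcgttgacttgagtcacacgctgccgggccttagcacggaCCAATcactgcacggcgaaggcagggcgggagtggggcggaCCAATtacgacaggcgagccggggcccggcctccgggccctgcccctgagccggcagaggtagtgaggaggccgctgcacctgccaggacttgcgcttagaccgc
Npc2, chr12:84773063-84773362 (- strand): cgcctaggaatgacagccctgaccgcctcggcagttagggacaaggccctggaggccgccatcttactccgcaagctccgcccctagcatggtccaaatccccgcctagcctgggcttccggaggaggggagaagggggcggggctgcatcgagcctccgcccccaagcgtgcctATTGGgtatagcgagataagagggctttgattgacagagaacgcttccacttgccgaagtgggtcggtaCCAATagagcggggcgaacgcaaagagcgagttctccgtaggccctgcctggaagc

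Searched on both strands, with no overlaps between matches, the letters TCACNCCAC of the sterol regulatory element occurred in 1 of the 28 windows, that of Hmgcs1, 137 bases before the start. They occurred in 1.24% of all 32851 promoters of the same length. CCAAT was found in 20 of the 28 windows (71.4%), and in at least 1 window of 20 of the 22 genes, against 37.4% of all promoters. Mvk had 5 matches, Hmgcs1 and Nsdhl had 4, and Msmo1, Hsd17b7, Mylip, Ggps1 and 1 window of Insig2 had 3. The GC box letters GGGCGG were found in 23 of the 28 windows (82.1%), against 35.7% of all promoters. A match is a description of these letters and not a bound site. Only these exact letters were searched, so a window without a match was not shown to lack such an element.

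Between the genotypes, 1 of the 28 members rose in the libraries labelled DDI2-KO, 0 fell and 27 did not pass an adjusted p of 0.05 in edgeR's quasi-likelihood test. Of all genes tested, 1.33% were called higher and 1.2% lower, so the count among the members was near that of genes in general. At an unadjusted p under 0.05 there were 3 higher members (Npc2, Soat2 and Tm7sf2) and 4 lower ones (Idi1, Fdft1, Lss and Cyp51). The same limit was passed by 12% of all genes upward and 11.5% downward. With DESeq2 1 member, Idi1, was called lower, out of 396 such calls among 12339 genes, and with limma-voom 0, out of 64 among 13699 genes.

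The fitted values of the members nevertheless leaned to one side. The fitted log2 fold change, DDI2-KO over WT, was below 0 in 22 of the 28 members (78.6%) against 51.3% of all genes tested, with a median of -0.27 against -0.015. Among the 19 enzymes it was below 0 in 17, with a median of -0.52, while the 9 other members had a median of -0.071. The summed level of the enzymes was 4467 and 3075 CPM in WT and 3329 and 2292 CPM in the libraries labelled DDI2-KO, so that WT library 2 lay below DDI2-KO library 1. Both libraries labelled DDI2-KO lay below both WT libraries in 9 members and above them in 6, and the groups overlapped in 13. Among all genes tested, 27.7% lay entirely below and 28% entirely above. The size of the lean depended on which library was left out. The median was -0.13 without WT library 1, -0.41 without WT library 2, -0.58 without DDI2-KO library 1 and -0.085 without DDI2-KO library 2, and the fitted value was then below 0 in 17, 22, 21 and 16 members.

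**Figure D1:**
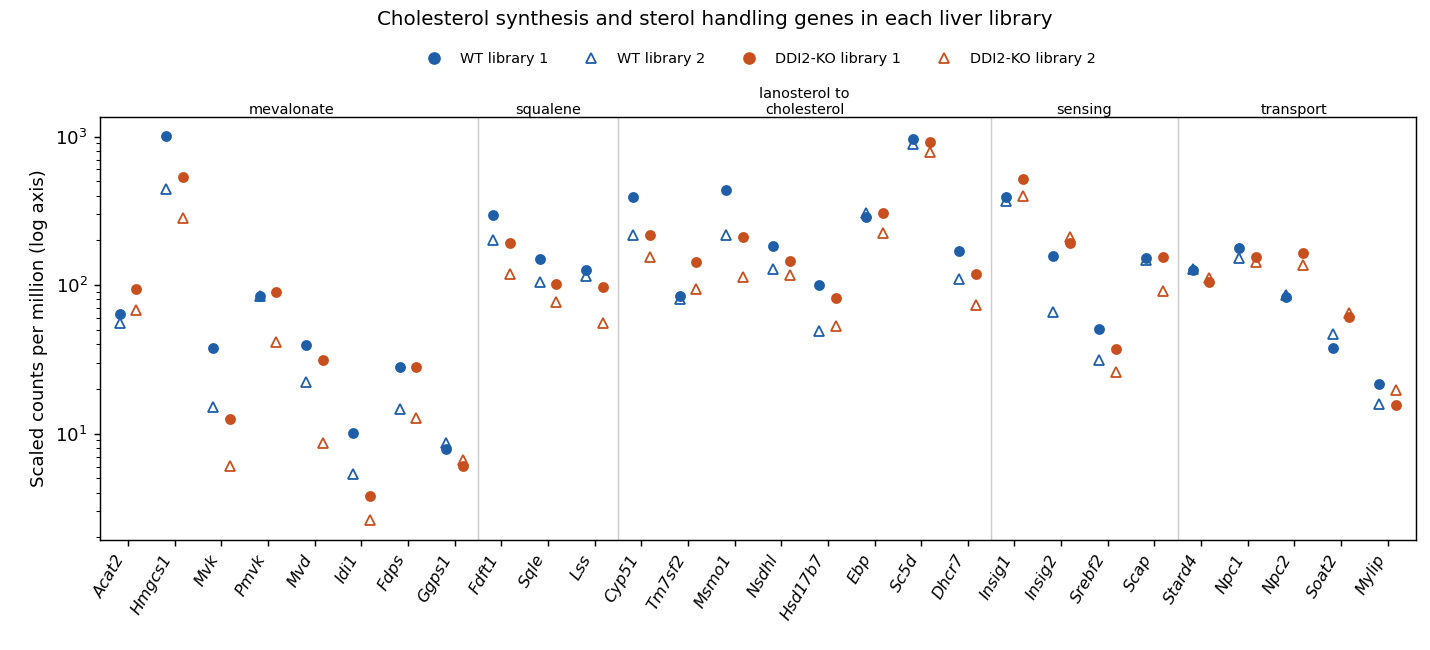
Level of the 28 genes in each of the 4 liver libraries, in CPM on a log axis, ordered by role along the pathway. Filled circles are library 1 and open triangles library 2 of each group, and blue marks WT and orange DDI2-KO. In 17 of the 19 enzymes the circle lies above the triangle in both groups, and in 13 of the 28 genes the 2 groups overlap.

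The first enzymes turn acetyl-CoA into isoprenoid diphosphates, and 0 of the 8 passed the test. Hmgcs1 (chromosome 13 of GRCm38, 119690379 to 119708260), the cytosolic HMG-CoA synthase that condenses acetoacetyl-CoA with acetyl-CoA, was at 1005 and 444 CPM in WT and at 532 and 283 CPM in the libraries labelled DDI2-KO. WT library 1 stood far above the others and the groups overlapped, with a log2 fold change of -0.83 and a standard error of 0.49 (edgeR adjusted p = 0.374). Of its stretches of 50 bases, 13.6% also occur in other annotated transcripts, chiefly of Gm48342, which overlaps it on the opposite strand. Mvk (chromosome 5, 114444269 to 114460591), mevalonate kinase, was at 37.5 and 15.2 CPM in WT and at 12.6 and 6.05 CPM in the libraries labelled DDI2-KO. Its groups did not overlap, but the 2 WT libraries differed by more than WT library 2 differed from DDI2-KO library 1. With a log2 fold change of -1.49 (95% interval -3.07 to 0.083, adjusted p = 0.229 from edgeR), Mvk had the lowest fitted value of the 28. Without WT library 2 it was -2.00 with an adjusted p of 0.0306.

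Idi1 (chromosome 13, 8885501 to 8892451) encodes the isomerase that makes dimethylallyl diphosphate. Idi1 was at 10.1 and 5.34 CPM in WT and at 3.82 and 2.61 CPM in the libraries labelled DDI2-KO. The groups did not overlap. The fitted difference was -1.26 on the log2 scale (95% interval -2.08 to -0.44, adjusted p = 0.0920 from edgeR). Idi1 passed the threshold with DESeq2 (adjusted p = 0.0266), without the filter on low counts (0.00660), without WT library 2 (0.0332) and with a replicate block (0.0104), and its adjusted p ranged from 0.00660 to 0.421 over 15 alternatives. Of its stretches of 50 bases, 30.5% also occur in transcripts of another annotated gene, so part of its reads may be missing or assigned elsewhere. Mvd, the decarboxylase that makes isopentenyl diphosphate, was at 39.6 and 22.2 CPM in WT and at 31.4 and 8.62 CPM in the libraries labelled DDI2-KO. These groups overlapped, and DDI2-KO library 2 stood apart as the low one.

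Pmvk, phosphomevalonate kinase, had 84.5 and 83.8 CPM in WT and 90.0 and 41.3 CPM in the libraries labelled DDI2-KO, so that here too DDI2-KO library 2 alone was low. Without DDI2-KO library 1 its adjusted p was 0.0381, and without DDI2-KO library 2 its fitted value was 0.11, above 0. Fdps, which joins the isoprenoid units to farnesyl diphosphate, was at 28.2 and 14.6 CPM in WT and at 28.3 and 12.7 CPM in the libraries labelled DDI2-KO. In each group library 1 held about the same high level and library 2 the same low one. The log2 fold change was -0.057 (95% interval -1.35 to 1.24). Of the exon bases of Fdps, 26.7% overlap Gm43738 on the same strand, and 11.7% of its stretches of 50 bases also occur in other annotated transcripts. Ggps1, which makes geranylgeranyl diphosphate and so leads away from sterols, was at 7.94 and 8.61 CPM in WT and at 6.07 and 6.66 CPM in the libraries labelled DDI2-KO. It was the lowest member per length, at 1.75 RPKM in WT (CPM divided by the length of all annotated exons in kilobases), and its adjusted p was 0.295 from edgeR. Acat2, the cytosolic thiolase that opens the pathway, was the one of the 8 whose fitted value was above 0, at 64.3 and 55.8 CPM in WT and 93.6 and 67.9 CPM in the libraries labelled DDI2-KO (edgeR adjusted p = 0.231). Its count is uncertain, since 45.9% of its stretches of 50 bases also occur in the near copy Acat3 or another gene.

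At the branch to sterols lie the 3 enzymes from farnesyl diphosphate to lanosterol, and 0 passed the test. In each of them both libraries labelled DDI2-KO lay below both WT libraries, as did 27.7% of all genes tested. Fdft1, squalene synthase, was at 297 and 201 CPM in WT and at 191 and 119 CPM in the libraries labelled DDI2-KO (log2 fold change -0.68, standard error 0.28, adjusted p = 0.198 from edgeR). Of its stretches of 50 bases, 30.7% also occur in other annotated transcripts, and Ctsb on the opposite strand shares the most. The strand setting of the counting is not given in the sources used here. Sqle, the squalene epoxidase that catalyses a slow step of the pathway, was at 151 and 105 CPM in WT and at 102 and 76.5 CPM in the libraries labelled DDI2-KO (log2 fold change -0.52, standard error 0.23, adjusted p = 0.214). Lss, lanosterol synthase, was at 127 and 115 CPM in WT and at 96.4 and 55.7 CPM in the libraries labelled DDI2-KO (log2 fold change -0.67, standard error 0.26, adjusted p = 0.176). In Fdft1 and Sqle the higher of the DDI2-KO libraries lay close under the lower of the WT libraries. Lss kept a wider gap, and passed the test without DDI2-KO library 1 (-1.11, adjusted p = 0.0381).

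Of the 8 enzymes that carry lanosterol to cholesterol, 0 passed the test and 7 had a fitted value below 0, with a median of -0.21. Cyp51, the lanosterol demethylase, was at 392 and 219 CPM in WT and at 218 and 155 CPM in the libraries labelled DDI2-KO (log2 fold change -0.71, 95% interval -1.42 to -0.00098, adjusted p = 0.212 from edgeR). Msmo1, the methylsterol oxidase of the demethylation that follows, was at 434 and 216 CPM in WT and at 210 and 114 CPM in the libraries labelled DDI2-KO (log2 fold change -1.01, 95% interval -2.07 to 0.054, adjusted p = 0.230). In both genes WT library 2 and DDI2-KO library 1 had nearly the same level. Dhcr7, which makes cholesterol from 7-dehydrocholesterol, was at 171 and 109 CPM in WT and at 118 and 73.2 CPM in the libraries labelled DDI2-KO, with overlapping groups and an adjusted p of 0.306 from edgeR.

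The other late enzymes differed less between the genotypes. Nsdhl, a sterol dehydrogenase of the demethylation steps, was at 184 and 129 CPM in WT and at 146 and 117 CPM in the libraries labelled DDI2-KO. Hsd17b7, the ketosteroid reductase of the same steps, was at 100 and 49.2 CPM in WT and at 82.5 and 53.3 CPM in the libraries labelled DDI2-KO. In both genes the groups overlapped, and library 1 was the higher one in each group. Ebp, the sterol isomerase, was at 289 and 304 CPM in WT and at 305 and 225 CPM in the libraries labelled DDI2-KO. Sc5d, the sterol desaturase, was at 962 and 897 CPM in WT and at 919 and 782 CPM in the libraries labelled DDI2-KO. Sc5d had the highest level per length of the 28 (191 RPKM in WT, ahead of Hmgcs1 with 158 and Ebp with 128), and its log2 fold change of -0.13 had a 95% interval of -0.54 to 0.28. Tm7sf2, which encodes a sterol reductase, went the other way. It was at 83.9 and 80.9 CPM in WT and at 143 and 93.4 CPM in the libraries labelled DDI2-KO. Of its exon bases, 12.1% overlap Vps51 on the same strand. Both libraries labelled DDI2-KO were above WT, with a log2 fold change of 0.52 and a standard error of 0.22 (edgeR adjusted p = 0.200, and 0.0442 without DDI2-KO library 2).

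**Figure D2:**
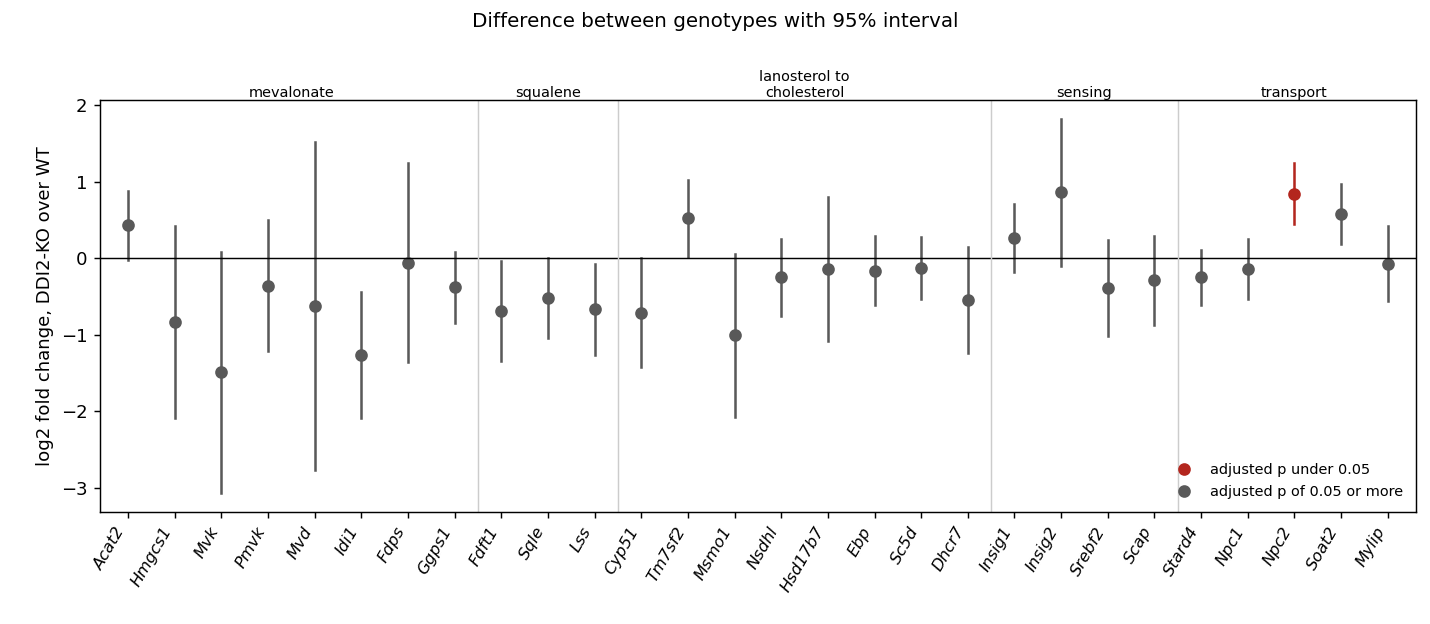
Fitted log2 fold change of each of the 28 genes, DDI2-KO over WT, from edgeR's quasi-likelihood test on 2 libraries per group, with its 95% interval as a bar. Npc2, in red, is the member with an adjusted p under 0.05, and 22 of the 28 points lie below 0.

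The 4 genes of sterol sensing were split, with 2 fitted values above 0 and 2 below, and 0 passed the test. Insig2, one of the proteins that hold SCAP back and the one less dependent on SREBP2, was at 157 and 66.3 CPM in WT and at 193 and 212 CPM in the libraries labelled DDI2-KO. WT library 2 alone was low, and the log2 fold change of 0.86 (95% interval -0.10 to 1.82) had an adjusted p of 0.252 from edgeR. Of the 15 alternatives, the fit without WT library 1 was the only one that called it (1.61, adjusted p = 0.0194). Insig1, the sterol-responsive partner, was at 390 and 370 CPM in WT and at 517 and 397 CPM in the libraries labelled DDI2-KO (log2 fold change 0.27, adjusted p = 0.441 from edgeR). Both Insig genes were thus at higher values in the libraries labelled DDI2-KO, without passing the test. Srebf2, which encodes SREBP2 and is among its own targets, was at 50.9 and 31.5 CPM in WT and at 37.1 and 25.9 CPM in the libraries labelled DDI2-KO (log2 fold change -0.39, adjusted p = 0.428). Scap was at 153 and 147 CPM in WT and at 155 and 90.9 CPM in the libraries labelled DDI2-KO. Only DDI2-KO library 2 stood below the other libraries for Scap, as for Pmvk. Of the stretches of 50 bases of Scap, 13.1% also occur in other annotated transcripts.

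Of the 5 genes of sterol transport, esterification and receptor turnover, Npc2 rose. Npc2 (ENSMUSG00000021242, chromosome 12, minus strand, 84754562 to 84773152) encodes the soluble lysosomal protein that takes up cholesterol released from lipoproteins and hands it to NPC1. Its reads numbered 2794 and 2638 for WT and 4282 and 3144 for DDI2-KO, which is 83.1 and 85.4 CPM against 165 and 137 CPM. The WT libraries were nearly equal and both libraries labelled DDI2-KO lay well above them. Npc2 was 1.79-fold higher (log2 fold change 0.84, 95% interval 0.45 to 1.24, adjusted p = 0.0472 from edgeR), from 84.2 ± 1.61 to 151 ± 20.2 CPM (SD, n = 2 each). The direction was the same in all 15 alternatives, from 0.70 to 0.98 on the log2 scale, and 7 of them kept the adjusted p under 0.05. It was 0.0604 with limma-voom and 0.0556 with upper-quartile factors, and 0.206, 0.152 and 0.0689 without WT library 1, WT library 2 and DDI2-KO library 1. It shares 0% of its stretches of 50 bases with other annotated genes.

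Lysosomal genes such as Npc2 are strongly expressed in macrophages, so the Kupffer cell markers are given beside it. Of 6 such markers, 5 had fitted values above 0 and 0 passed the test, and their summed level was 581 and 502 CPM in WT and 718 and 615 CPM in the libraries labelled DDI2-KO. Adgre1, the F4/80 antigen, was at 40.8 and 39.0 CPM in WT and at 59.4 and 60.1 CPM in the libraries labelled DDI2-KO (log2 fold change 0.58, edgeR adjusted p = 0.0744). Marco went the other way, at 32.4 and 35.2 CPM in WT and at 29.6 and 24.3 CPM in DDI2-KO, and Clec4f and Timd4 had overlapping groups. The sum of the markers was thus at higher values in the same libraries as Npc2, and its part in the rise of Npc2 was not tested.

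Npc1, the membrane partner of NPC2 in lysosomes, was at 177 and 151 CPM in WT and at 154 and 144 CPM in the libraries labelled DDI2-KO, with overlapping groups. Its log2 fold change of -0.14 had a 95% interval of -0.53 to 0.26. Soat2, which esterifies cholesterol in hepatocytes, was at 37.6 and 47.1 CPM in WT and at 61.3 and 64.9 CPM in the libraries labelled DDI2-KO. The groups did not overlap, and the log2 fold change of 0.58 (95% interval 0.19 to 0.96) had an adjusted p of 0.0982 from edgeR. Stard4, a cytosolic sterol carrier and SREBP2 target, was at 127 and 129 CPM in WT and at 104 and 111 CPM in the libraries labelled DDI2-KO (log2 fold change -0.25, adjusted p = 0.375). Mylip, the ubiquitin ligase that turns over lipoprotein receptors, was at 21.5 and 15.8 CPM in WT and at 15.7 and 19.8 CPM in the libraries labelled DDI2-KO, with overlapping groups.

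The enzymes also differed between libraries of the same genotype. Library 1 was above library 2 in 17 of the 19 enzymes within WT and in 18 of the 19 within DDI2-KO, and the same 17 enzymes did so in both groups (89.5%). Of all genes tested, 25.1% were higher in library 1 of both groups. The median log2 ratio of library 1 over library 2 in the enzymes was 0.56 in WT and 0.63 in DDI2-KO, against -0.0013 and -9.02e-05 over all genes tested. Mvk was 2.47-fold higher in WT library 1 than in WT library 2 and 2.09-fold higher in DDI2-KO library 1 than in DDI2-KO library 2. For Hmgcs1 these ratios were 2.26 and 1.88, for Msmo1 2.01 and 1.85, for Fdps 1.93 and 2.22, and for Mvd 1.78 and 3.65. The enzymes that were not higher in both were Ebp and Ggps1. Srebf2 moved with the enzymes, with ratios of 1.62 and 1.43.

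No source used here says that the replicate numbers pair the libraries of the 2 genotypes, and whether they do was not shown. What is described is that the enzymes went the same way together within each group. The 9 other members did so less, with 4 of 9 higher in library 1 of both groups, and the 55 other genes of the pathway were at 14 of 55 (25.5%), near the share of all genes. Across the 28 members the log2 ratio in WT and that in DDI2-KO had a Pearson correlation of 0.40 and a Spearman correlation of 0.43, and across the 19 enzymes of 0.47 and 0.52. These are descriptions across genes that share 4 libraries and their scaling, and over all genes tested the values were 0.058 and 0.023. Over 13675 genes the log2 ratio in DDI2-KO correlated with the GC content of the transcript (Spearman 0.48, against -0.068 in WT). The members had a median GC content of 49.2%, against 49.4% for all genes tested. With offsets for GC content and transcript length, again 21 of the 28 members were higher in library 1 of both groups, 17 of them enzymes. The 10 enzymes with under 5% of their stretches shared and no overlapping exons gave 9 of 10.

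**Figure D3:**
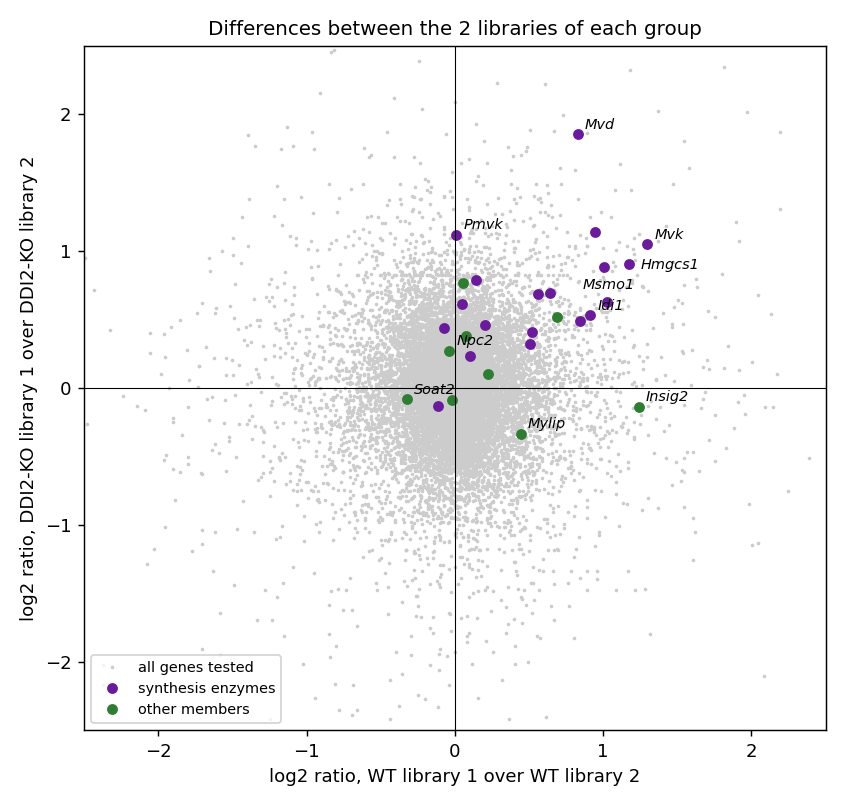
Log2 ratio of the levels in library 1 and library 2 of WT (horizontal axis) against the same ratio in DDI2-KO (vertical axis), with 0.1 CPM added to each level. Grey points are all genes tested, of which 78 lie outside the axes, purple points the 19 synthesis enzymes and green points the other 9 members. Of the purple points, 17 lie above 0 on both axes.

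Other liver genes moved with this difference between libraries. The markers of pericentral hepatocytes had a summed level of 11784 and 6875 CPM in WT and 11200 and 9492 CPM in DDI2-KO libraries 1 and 2, and Glul, the glutamine synthetase of the cells around the central vein, was at 1340 and 623 CPM and at 1055 and 984 CPM. The periportal markers summed to 2540 and 2770 CPM in WT and to 2410 and 1983 CPM in DDI2-KO. Of the 6 listed genes of sterol efflux and LXR, 1 was higher in library 1 within WT and 3 were within DDI2-KO, with median log2 ratios of -0.27 and 0.0073. Among them, Abca1, Abcg5 and Abcg8, named after their values were seen, encode sterol exporters and ran opposite to the enzymes in both groups. Abca1 was at 179 and 241 CPM in WT and at 134 and 195 CPM in the libraries labelled DDI2-KO, Abcg5 at 92.1 and 146 CPM and at 82.8 and 109 CPM, and Abcg8 at 105 and 171 CPM and at 84.9 and 95 CPM. In each of these genes library 2 was the higher one in both groups. The exporter gene Abcg1 did not share this, at 8.21 and 8.80 CPM in WT and at 10.4 and 9.18 CPM in DDI2-KO, and Nr1h2 and Nr1h3 were likewise higher in library 1 within DDI2-KO. Srebf1, which encodes the related factor of fatty acid synthesis, was at 133 and 330 CPM in WT and at 151 and 184 CPM in the libraries labelled DDI2-KO, again higher in library 2. The clock gene Arntl was at 15.7 and 4.95 CPM in WT and at 15.6 and 23.9 CPM in the libraries labelled DDI2-KO, and Dbp at 39.9 and 91.6 CPM and at 29.2 and 10.4 CPM, so these genes did not keep 1 direction in the 2 groups. The part of lobule position, sterol state or time of day in the difference between libraries was not tested.

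Around the members, 55 further genes of sterol biology were listed by role, all were tested and 0 passed an adjusted p of 0.05 in edgeR. At an unadjusted p under 0.05, 12 were higher and 3 lower (21.8% and 5.45%), against 12% and 11.5% of all genes tested. DESeq2 called 5 higher and 1 lower, out of 515 and 396 such calls among 12339 genes, and limma-voom called 0, out of 72 and 64 among 13699 genes. Their fitted values leaned opposite to those of the enzymes, above 0 in 38 of 55 (69.1%, against 48.7% of all genes tested) with a median of 0.17. In 22 of the 55 both libraries labelled DDI2-KO lay above WT and in 7 below, against 28% and 27.7% of all genes.

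The branches that lead from farnesyl diphosphate away from cholesterol had values that lay mostly above 0. Of 13 genes of prenylation, dolichol and ubiquinone synthesis, 11 had fitted values above 0, with a median of 0.34, and 0 passed the test. In 9 of them both libraries labelled DDI2-KO lay above WT. Of all genes tested, 48.7% had fitted values above 0 and 28% lay entirely above WT. Icmt, which methylates prenylated proteins, was at 24.8 and 25.8 CPM in WT and at 45.0 and 39.0 CPM in the libraries labelled DDI2-KO (log2 fold change 0.73, standard error 0.16, adjusted p = 0.0559 from edgeR). Of the 12 genes of SREBP processing and sterol-regulated degradation, 9 had fitted values above 0. The protease genes Mbtps1 and Mbtps2, which cut SREBP2 in the Golgi, had overlapping groups.

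Por, the reductase that passes electrons to CYP51 and squalene epoxidase, was at 283 and 318 CPM in WT and at 190 and 107 CPM in the libraries labelled DDI2-KO, well separated (log2 fold change -1.02, standard error 0.27, edgeR adjusted p = 0.0833). The other electron donors, Cyb5a, Cyb5b and Cyb5r3, had overlapping groups. Acss2, which makes acetyl-CoA from acetate, was at 304 and 367 CPM in WT and at 661 and 368 CPM in the libraries labelled DDI2-KO, with DDI2-KO library 1 alone standing out (adjusted p = 0.233). Among 6 genes of sterol efflux, Abcg8 had the smallest p (log2 fold change -0.62, adjusted p = 0.178), and among 12 further transport genes Stard5 had (0.68, adjusted p = 0.0702), at 82.7 and 86.7 CPM in WT and 147 and 124 CPM in the libraries labelled DDI2-KO.

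The hepatocyte identity of the samples was clear from their markers. The 6 hepatocyte markers summed to 154621 and 179472 CPM in WT and 145071 and 149327 CPM in the libraries labelled DDI2-KO, with 0 called, while Alb alone took 122390 to 154589 CPM. Of 5 sinusoidal endothelial markers Stab2 fell by 1.10 on the log2 scale (edgeR adjusted p = 0.0288) and 0 others passed. All 4 erythroid markers had fitted values below 0, and their sum was 86.8 and 168 CPM in WT and 51.2 and 45.4 CPM in the libraries labelled DDI2-KO. Of them, Hba-a1 passed the test (-1.94, adjusted p = 0.0338). None of the 6 stellate, 5 biliary and 5 leukocyte markers passed, with sums of 378 to 438, 52.8 to 70.4 and 17.5 to 25.1 CPM, and no marker was at 0 in every library. The part of these cells in the member values was not tested.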

How the data were processed

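Liver mRNA was sequenced as 4 libraries, 2 WT and 2 DDI2-KO, grouped and numbered by the titles of the samples. What the authors deposited are raw counts of reads per Ensembl gene, not normalized. The submitters' processing notes name cutadapt 1.8, STAR 2.5.2b, HTSeq 0.6.1 and GRCm38, and the libraries were made with a stranded mRNA kit. Reads that align to several places were set apart by the counting and not given to a gene, so genes with near copies can be counted too low. Summary lines, 35.3% to 42.3% of each file's total, were left out.

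In R 4.3.3, edgeR 4.0.16 was run with TMM scaling, filterByExpr, robust glmQLFit and glmQLFTest, without a block, and p-values were adjusted by Benjamini-Hochberg over 13699 genes. The methods of the study name limma. It was run as an alternative (limma 3.58.1), as was DESeq2 1.42.0. The other alternatives were other scalings and filters on low counts (none, or a mean of 1 CPM or more), and edgeR without its robust option. Further ones were a replicate block, each library left out in turn, and thresholds of 0.10 and 0.01. The last were offsets for GC content and length (lowess span 0.3), and members with under 5% of stretches shared and no overlapping exons. The offsets on the differences between libraries of a group were added after seeing the data. A standard error is the log2 fold change divided by the square root of F, and a 95% interval uses the fit's degrees of freedom. The scripts were tested on simulated data made with the means and depths of these libraries.

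The members and all lists were chosen with earlier results of these data known. Every member was named, with Ddi2, Malat1 and Neat1. From each list of other pathway genes, those with an adjusted p under 0.05 were named, or the gene with the smallest p. Some genes that this rule names are not reported here. Mbtps1, Mbtps2, the cytochrome b5 genes, Adgre1, Marco, Clec4f, Timd4, Glul, Alb, Abca1, Abcg1, Abcg5, Nr1h2, Nr1h3, Srebf1, Arntl and Dbp were named after their values were seen. Coordinates are from GENCODE M21, which holds 48349 of the 48709 identifiers, and exons, near copies and overlaps were read from it. Libraries of 1 group differed beyond sampling noise, with a chi-square of 64.7 (WT) and 34.7 (DDI2-KO) for each degree of freedom. Each therefore counts as 1 sample, and with 2 mice per group the p-values cover the spread among these samples only. Cadmium-treated mice, HepG2 cells and protein assays were not analysed here.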

Additional observations from a re-analysis of the deposited data

How the results depend on the processing

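Of 420 member values recomputed under the alternatives, 396 stayed on the same side of the threshold, 16 passed it that had not, 8 (all Npc2) no longer passed, and 0 called values reversed. The fitted sign changed in 9 members, in each case when 1 library was left out, and in 0 members under the other alternatives. The count of members higher in the libraries labelled DDI2-KO, 1 with the main test, was 0 with upper-quartile factors, limma-voom, limma-trend, a mean of 1 CPM or more, edgeR without its robust option and an adjusted p under 0.01, and 2 without a filter on low counts and with an adjusted p under 0.10. With each library left out it ranged from 0 to 2. The count of members lower, 0 with the main test, was 1 with DESeq2, without a filter and with an adjusted p under 0.10, and with each library left out it ranged from 0 to 2. With the replicate block it was 7 (Hmgcs1, Mvk, Idi1, Fdft1, Lss, Cyp51 and Msmo1), but the numbers were not shown to pair the libraries: the deviations of same-numbered libraries correlated at 0.039 over all genes tested. Over all genes, the main test called 182 higher and 164 lower, the block 553 and 555, DESeq2 515 and 396, no filter 792 and 752, the offsets 463 and 379, limma-voom 72 and 64, limma-trend 74 and 65, and no robust estimation 75 and 77. Upper-quartile factors gave 126 and 191 and library totals alone 230 and 148. Without WT library 1 there were 75 and 78, without WT library 2 76 and 127, and without DDI2-KO library 2 294 and 337. The cause of these changes was not tested. Every member had at least 60 reads in each library.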
